A study of Mus musculus with 59 samples.

Results

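The ATF4 amino acid stress response genes were read in 59 mouse RNA-seq libraries, as the 33 rows that carry the symbols of this gene module among the 24972 rows of each of 4 tables of normalised gene counts. The study asked what inhibition of ATP citrate lyase (ACLY) does to cells and tissues, and the 59 libraries form 17 groups. AML12 is a mouse hepatocyte line, grown here in medium with serum and dexamethasone. Its 8 groups of 3 libraries were transfected with a control siRNA (siC) or one that targets Acly (siAcly), and 24 h later were left untreated (Ut) or received 1 mM hydroxycitrate (HC), 10 µM SB-204990 (SB) or 30 µM bempedoic acid (Bemp) for 16 h. Liver and soleus came from male C57BL/6 mice of 41 weeks, 5 mice per group, fed a standard diet (Ut) or the same diet with 7.5 g/kg HC for 21 weeks, and were taken after 16 h without food. Gastrocnemius came from wild-type male mice of about 6 months in 5 groups of 3, namely uninjected mice (C) and mice whose left hind limb was injected with 10 µM cardiotoxin (CTX), a snake venom toxin that destroys muscle fibers, taken at day 2 or day 30 post injury (2DPI, 30DPI) without or with 7.5 g/kg HC from the injury on (CTX-HC). The labels do not say whether the 3 AML12 libraries of a group were separate cultures, so p values in that table measure the spread between libraries, which may be technical.

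Cells that lack amino acids, or whose endoplasmic reticulum is overloaded, phosphorylate the translation factor eIF2alpha. Bulk translation falls, while the mRNA of the transcription factor ATF4 is translated better, and ATF4, paired with C/EBP proteins, raises genes that import and make amino acids, charge tRNAs and adapt or kill the cell. ATF4 is therefore mainly set at translation, and its own mRNA level is a poor measure of its activity, so its targets serve as the readout. The 33 genes were 10 stress factors and regulators (Atf4, Atf5, Ddit3, Trib3, Chac1, Nupr1, Cebpb, Cebpg, Ddit4, Eif4ebp1), 2 secreted hormones (Fgf21, Stc2), 5 enzymes of serine, glycine and folate-bound carbon synthesis (Phgdh, Psat1, Psph, Shmt2, Mthfd2), 4 of asparagine, proline and cysteine synthesis (Asns, Aldh18a1, Pycr1, Cth), 5 amino acid transporters (Slc7a11, Slc7a5, Slc7a1, Slc3a2, Slc38a2) and 7 cytosolic tRNA synthetases (Aars, Gars, Nars, Sars, Wars, Mars, Iars).

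ATF4 and its C/EBP partners bind a composite element of 8 letters, searched here as TGATGNAA on both strands (TTNCATCA where read from the opposite strand). A RefSeq promoter (GRCm38.p6, from 250 bases before to 50 bases after the transcription start, 300 bases in all) was held for 28 of the 33 genes, and 10 of the 28 (35.7%) contained the letters, against 1219 of all 27025 genes with an entry (4.51%). The 10 were Trib3, Chac1, Nupr1, Fgf21, Asns, Pycr1, Slc7a11, Aars, Gars and Iars, and Slc7a11 and Aars held 2 matches each. The 33 genes were listed as members of the ATF4 response, so the 2 shares describe that choice and are no test of it. Of the genes that passed the adjusted threshold in the main comparisons below, only Trib3 and Chac1 are among the 10. Psat1, Mthfd2, Aldh18a1, Slc7a1 and Slc3a2 held no match, and Cth, Slc7a5 and Eif4ebp1 had no promoter entry. Some of the 10, most of them not called below, are printed as windows of 30 bases on the strand of the gene, 5′ to 3′, with the matching letters in capitals.
Asns, which makes asparagine, chr6:7693214-7693243, minus strand: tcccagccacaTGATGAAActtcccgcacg
Trib3, a pseudokinase that restrains ATF4, chr2:152344028-152344057, minus strand: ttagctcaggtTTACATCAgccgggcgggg
Chac1, which degrades glutathione, chr2:119351038-119351067, plus strand: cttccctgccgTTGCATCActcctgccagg
Nupr1, a stress-induced chromatin factor, chr7:126625562-126625591, minus strand: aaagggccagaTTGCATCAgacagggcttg
Pycr1, the last enzyme of proline synthesis, chr11:120643833-120643862, minus strand: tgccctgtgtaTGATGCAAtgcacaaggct
Slc7a11, first match, chr3:50443661-50443690, minus strand: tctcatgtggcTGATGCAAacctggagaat
Slc7a11, second match, chr3:50443642-50443671, minus strand: acctggagaatTTGCATCAtcatgcagccc
Gars, the glycyl-tRNA synthetase, chr6:55037960-55037989, plus strand: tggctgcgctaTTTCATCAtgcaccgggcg
The first matching letter lay 23 bases before the start of Asns, 193 before Chac1, 110 before Nupr1, 103 before Pycr1, 66 and 47 before Slc7a11, 30 before Gars and 15 bases into Trib3. A match describes these letters and is not a measured binding site, and the 18 genes without a match in this window may hold an element elsewhere.

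The module had a different composition in each of the 4 sources. Levels here are normalised counts per kb of exon and per M of the library's total, and since the tables were normalised separately and built with different kits per the labels (rRNA depletion in liver and soleus, mRNA selection in AML12 and gastrocnemius, whereas the study's methods name the mRNA kit alone), they were not tested across tables. In AML12 cells the serine enzyme genes Phgdh (205.3 ± 37.2, mean ± SD over 24 libraries) and Psat1 (129.6 ± 14.4) and the asparagine synthetase gene Asns (83.1 ± 14.5) were among the most abundant members. In liver the same genes were almost silent, at 0.0470 ± 0.0629, 0.0640 ± 0.0310 and 0.278 ± 0.326 over 10 libraries. Liver instead was rich in Cth (208.0 ± 79.7), whose enzyme makes cysteine from cystathionine, in the mitochondrial serine hydroxymethyltransferase gene Shmt2 (76.2 ± 4.41) and in Fgf21 (24.4 ± 13.7), a hormone of fasting and amino acid lack. Fgf21 was lower in the other 3 sources, where its mean was 0.0396 in AML12 cells, 0.0514 in soleus and 0.595 in gastrocnemius. Muscle was marked by Slc38a2, a glutamine and alanine importer, at 56.7 ± 33.4 in soleus and 28.5 ± 11.9 in gastrocnemius. Chac1 was highest in gastrocnemius (26.1 ± 11.8, 15 libraries), against 8.79 ± 5.15 in AML12 cells, 7.26 ± 3.55 in soleus and 1.37 ± 0.707 in liver. Atf5, a sister factor of ATF4, ranked first among the 33 genes in liver (363.3 ± 78.5) and soleus (133.8 ± 21.8). The cystine importer gene Slc7a11 was the lowest member in liver, soleus and gastrocnemius and stood at 0.988 ± 0.628 in AML12 cells.

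**Figure D1:**
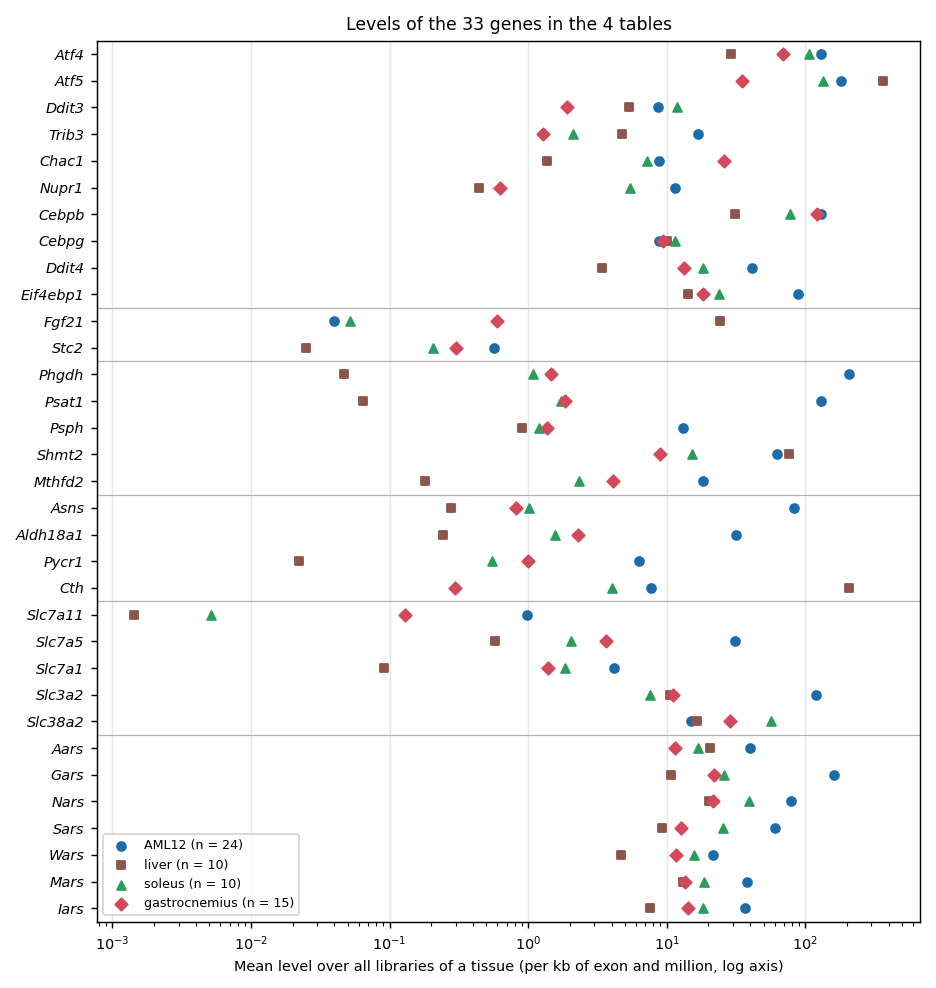
Level of each of the 33 genes in AML12 cells, liver, soleus and gastrocnemius, as normalised counts per kb of exon and per M on a logarithmic axis, 1 point per gene and table for the mean over its libraries. Phgdh, Psat1 and Asns fall from 205.3, 129.6 and 83.1 in AML12 cells to under 1 in liver, where Cth reaches 208.0 and Fgf21 24.4.

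A gene was tested where its normalised count reached 10 in 3 or more libraries (AML12 cells and gastrocnemius) or 5 or more (liver and soleus). This kept 32 of the 33 genes in AML12 cells (Fgf21 was left out), 23 in liver (Nupr1, Stc2, Phgdh, Psat1, Mthfd2, Asns, Aldh18a1, Pycr1, Slc7a11 and Slc7a1 were left out), 31 in soleus (Fgf21 and Slc7a11 were left out) and all 33 in gastrocnemius. Tests were made on log2(normalised count + 1), a scale that understates the change of low genes, with limma over all genes of a table, and a gene is said to have risen or fallen where its Benjamini-Hochberg adjusted p was under 0.05. Estimated library depth ran from 7.31 to 16.3 M reads for AML12 cells, from 7.69 to 13.1 M for liver, from 8.93 to 11.2 M for soleus and from 16.0 to 34.9 M for gastrocnemius. Hepatocyte markers (5 genes) summed to between 675616.9 and 1102895.8 in liver and to between 1713.4 and 38337.8 in AML12 cells. Bile duct markers (4 genes) summed to between 43.6 and 119.6 in liver and to between 6869.7 and 27240.3 in AML12 cells. Muscle fiber markers (8 genes) summed to at least 770913.4 in every soleus library.

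The siRNA check was met by all but 1 AML12 library. Acly, the targeted gene, was at 2575.7 to 3859.6 normalised counts in 11 of the 12 siC libraries and at 215.3 to 598.5 in the 12 siAcly libraries, whereas the library labelled siC Bemp 11 held 404.4. The library labelled siC Ut 13 carried 917.4 counts of Cyp1a1, a drug-induced oxidase gene chosen after its values were seen, against 194.6 and 200.2 in the other siC Ut libraries and 677.8 to 1255.2 in the Bemp libraries other than siC Bemp 11, which held 236.0. Whether these labels are right could not be settled here. Medians of the comparisons with siC Ut, and counts at an unadjusted p under 0.05, are also given without both libraries, an alternative chosen after seeing the data.

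Knockdown of Acly in untreated AML12 cells came with higher mean levels of almost the whole module, without a call for any single gene. The mean log2 level was higher in siAcly Ut than in siC Ut for 30 of 32 genes, against 47.3% of all genes tested, and the median log2 difference of the 32 was 0.55, against -0.03 over all 12296. Members moved together between libraries, so such counts of genes are not separate observations. In siAcly Ut 15, 28 of the 32 were above their mean over the 24 AML12 libraries, and in siC Ut 2 only 3 were. By limma, 0 of the 32 passed the adjusted threshold, and 23 of all 12296 genes did (0.187%). At an unadjusted p under 0.05, 15 of the 32 were higher (46.9%, background 10.6%) and 0 were lower (background 8.38%). The 3 siAcly Ut libraries lay above all 3 siC Ut libraries for 10 of the 32 genes (31.2%, background 12.6%). By the study's own limits, an unadjusted p of at most 0.05 with a log2 difference of at least 1, Chac1, Nupr1 and Trib3 counted as higher (9.38%, background 4.15%). The study set these limits on DESeq2 results, whereas here and below they were applied to the limma values, so the counts are not those of the study.

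Nupr1 was the member with the smallest adjusted p in this comparison. It stood at 263.7, 229.0 and 225.5 normalised counts in siC Ut 1, 2 and 13, and at 383.8, 353.7 and 892.7 in siAcly Ut 84, 14 and 15. The groups did not overlap, and library 15 was far above the other 2 of its group. The log2 difference was 1.05 (SE 0.26, limma adjusted p = 0.0843). Eif4ebp1, whose protein holds back cap-dependent translation, was at 1818.1, 1561.7 and 1463.5 counts in siC Ut and at 3461.1, 2237.9 and 4274.3 in siAcly Ut, again without overlap (log2 difference 1.00, SE 0.26, adjusted p = 0.0921). Gars was at 5643.2, 5058.7 and 4797.8 in siC Ut against 7076.3, 6885.5 and 7239.8 in siAcly Ut, a smaller but tighter difference of 0.45 (SE 0.12, adjusted p = 0.0946).

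Enzymes of serine and asparagine synthesis had higher means in siAcly Ut by smaller steps. Phgdh, which opens the serine pathway, was at 5246.7, 4946.6 and 4357.9 counts in siC Ut and at 8890.6, 6048.2 and 7026.4 in siAcly Ut (log2 difference 0.58, SE 0.24, limma adjusted p = 0.206). Psph, which closes it, was at 648.5, 392.1 and 438.5 against 947.7, 666.8 and 930.0 (0.80, SE 0.26, adjusted p = 0.138). For both genes all siAcly Ut libraries were above all siC Ut libraries, and so they were for Asns, at 2507.5, 1776.1 and 1987.5 against 3163.1, 2751.7 and 3859.8 (0.64, SE 0.22, adjusted p = 0.141). Psat1, the middle enzyme of the serine pathway, did not share this pattern: its mean was 6448.9 in siC Ut and 6626.4 in siAcly Ut, and its lowest value of the 24 libraries, 4736.7, was in siAcly Ut 15. Of the 7 tRNA synthetase genes, all had higher means in siAcly Ut (0.13 to 0.51), and of these Gars and Wars had an unadjusted p under 0.05. Genes whose promoter window held the element letters had a median difference of 0.69 (9 tested), and those without it 0.44 (18 tested), a description with no test. Atf4 itself was at 3527.9, 2285.4 and 2589.3 counts in siC Ut and at 4243.2, 3351.3 and 5814.2 in siAcly Ut, which overlapped (0.66, SE 0.27, adjusted p = 0.198).

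The sharpest values of the stress factors came from 1 library. In siAcly Ut 15 the cell death factor gene Ddit3 (CHOP) was at 869.0 counts, while siAcly Ut 84 and 14 held 132.9 and 159.3 and the siC Ut libraries 123.4 to 142.6. Trib3 was at 1420.4 in siAcly Ut 15 against 411.7 and 342.9 in its group, and 398.8, 191.4 and 257.5 in siC Ut. Chac1 was at 563.0 against 160.4 and 106.6, and 144.1, 55.8 and 75.2 in siC Ut. The log2 differences were 1.00 for Ddit3, 1.11 for Trib3 and 1.32 for Chac1 (SE 0.46, 0.47 and 0.60, limma adjusted p = 0.246, 0.210 and 0.238), and the groups overlapped for all 3. Ddit3 overlaps Mars by 68 bases on opposite strands, and whether the counting used strand is not given in the sources used here. The same library held the highest Cebpb (4450.6) and Pycr1 (749.3) of the 24. Without siAcly Ut 15 the median difference of the members was 0.32 and 6 of 32 were higher at an unadjusted p under 0.05 (18.8%, background 5.87%). Without siC Ut 13 and siC Bemp 11 the median was 0.45 and the count 7 (21.9%, background 6.52%), and without siC Ut 2 the count was 8 (25.0%, background 9.09%).

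**Figure D2:**
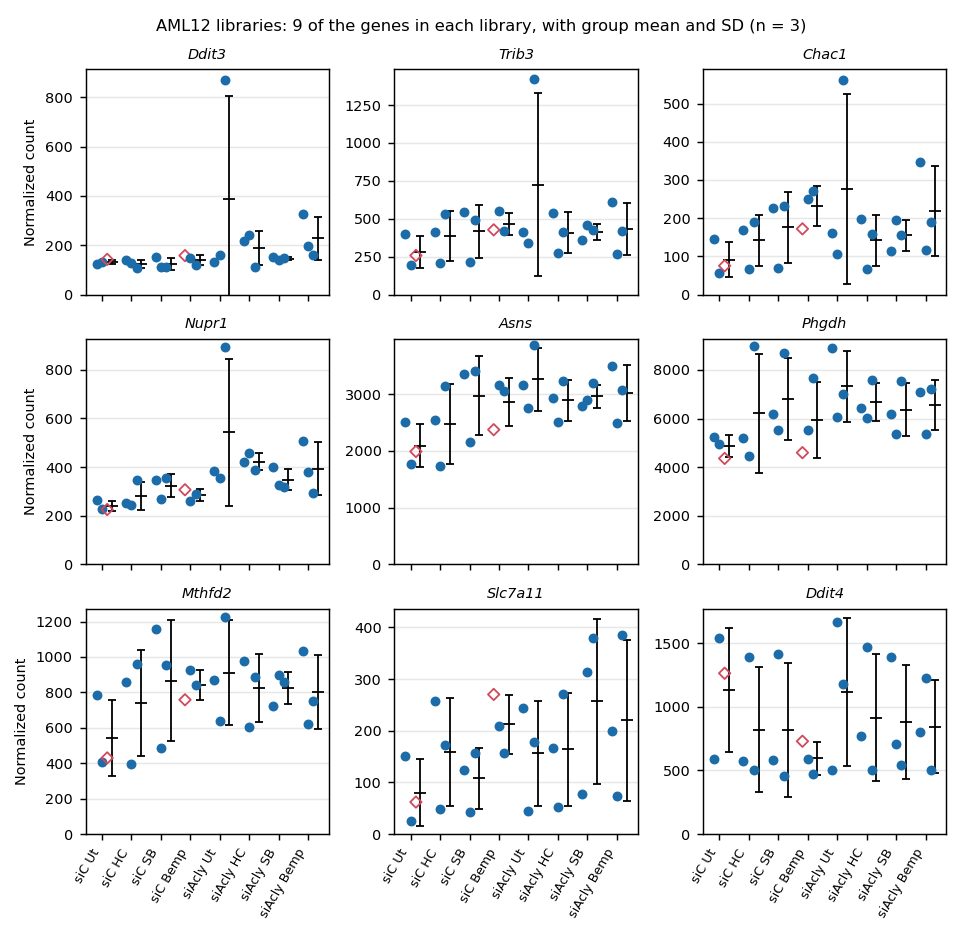
Normalised counts of Ddit3, Trib3, Chac1, Nupr1, Asns, Phgdh, Mthfd2, Slc7a11 and Ddit4 in the 24 AML12 libraries by group, 1 point per library with the group mean and SD, and hollow red diamonds for the libraries labelled siC Bemp 11 and siC Ut 13. Library siAcly Ut 15 stands alone for Ddit3 (869.0), Trib3 (1420.4) and Chac1 (563.0), and for Slc7a11 and Ddit4 libraries of the same group lie far apart.

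Much of the spread of the module in AML12 cells lay within groups. The share of a gene's variance that lay between libraries of 1 group was 71.8% for the median gene tested and slightly above that for the median member. Slc7a11 was near the median member in this share, but on the log2 scale it had the largest SD within groups of the members tested. It was at 25.6 to 77.2 counts in 8 libraries and at 123.6 to 385.6 in the other 16, and the 8 were siC Ut 2 and 13, siC HC 8, siC SB 5, siAcly Ut 14, siAcly HC 20, siAcly SB 17 and siAcly Bemp 23. The same 8 libraries held the 8 lowest values of Mthfd2 (397.6 to 725.3, the other 16 at 749.2 to 1226.1) and of Trib3 (191.4 to 357.4, the others at 398.8 to 1420.4). They also held the 8 highest values of Ddit4 (1230.3 to 1665.1, the others at 452.8 to 1178.5), whose protein REDD1 restrains the growth kinase mTORC1. The cystine importer, the mitochondrial folate enzyme and Trib3 were thus low, and Ddit4 high, in the same libraries of treated and untreated, siC and siAcly cells. Since the 8 were picked by Slc7a11, no test was made between them and the rest. Apart from siC Ut 13, their library numbers run in steps of 3 from 2 to 23, with 11 (siC Bemp 11) left out. What this run of numbers stands for is not given in the labels, and the main fit held no term for it. The 8 were 2 of 3 siC Ut libraries, 0 of 3 siC Bemp libraries and 1 of 3 libraries in each other group. The 2 libraries of doubtful label, siC Ut 13 among the 8 and siC Bemp 11 outside them, are part of this imbalance. The part of the 8 in the comparisons with siC Ut was not tested.

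A run of library numbers from 81 to 87 formed a second division. These 7 libraries, 1 in each group except siC Ut, held the highest Shmt2 of their own groups, for example 3739.2 in siC HC 82 against 2047.4 and 1374.8 in siC HC 7 and 8, and 3409.2 in siAcly Ut 84 against 2082.8 and 2295.3 in siAcly Ut 14 and 15. What the number series stands for is not given in the labels. With this split as a covariate, the median difference between siAcly Ut and siC Ut was 0.42, and 14 of 32 genes were higher at an unadjusted p under 0.05 (43.8%, background 11.4%).

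The ACLY inhibitors gave 0 limma calls in control cells among the 32 members and among all 12296 genes (background 0% for each compound). Doses differed (1 mM HC, 10 µM SB, 30 µM Bemp), so the 3 compounds are set side by side and not compared, and all 3 comparisons share the siC Ut libraries. The median log2 difference of the 32 genes to siC Ut was 0.22 for HC, 0.29 for SB and 0.31 for Bemp, with higher means for 27, 29 and 27 genes (against 50.5%, 48.4% and 48.3% of all genes). In each treated group the library of the 81 to 87 run, which siC Ut lacks, stood highest. The median deviation of the members from their AML12 means was 0.30 in siC HC 82, against -0.09 and -0.48 in siC HC 7 and 8. It was 0.27 in siC SB 81 against 0.04 and -0.29, and 0.22 in siC Bemp 83 against -0.14 and 0.10. The siC Ut libraries were at -0.11, -0.35 and -0.42, and the medians above are not adjusted for the run. The limma unadjusted p was under 0.05 for 0 genes with HC (background 0.203% higher), for Asns with SB (0.382%) and for Asns, Chac1 and Psph with Bemp (0.976%). All 3 treated libraries lay above all siC Ut libraries for 0 members with HC (background 1.16%), 6 with SB (18.8%, background 3.33%) and 10 with Bemp (31.2%, background 4.46%). The 6 with SB were Aars, Aldh18a1, Cebpb, Nupr1, Phgdh and Psat1, and the 10 with Bemp were Chac1, Eif4ebp1, Gars, Iars, Slc38a2, Slc3a2, Slc7a1, Slc7a11, Trib3 and Wars. These counts take in siC Ut 13 as a control, and the count with Bemp also takes in siC Bemp 11, both of doubtful label. By the study's limits Chac1 alone counted, with Bemp (3.12%, background 0.618%). Chac1 in siC Bemp was at 172.0, 251.0 and 271.4 counts, all above the 3 siC Ut libraries (144.1, 55.8 and 75.2), with a log2 difference of 1.41 (SE 0.60, adjusted p = 0.927). Slc7a11 was at 270.4, 208.9 and 157.8 against 152.2, 25.6 and 62.1 (1.71, SE 0.83, adjusted p = 0.927), where the 2 lowest controls belong to the 8 libraries named above. Without siC Ut 13 and siC Bemp 11 the medians were 0.17 (HC), 0.29 (SB) and 0.35 (Bemp), 0 members had an unadjusted p under 0.05 for any compound, and the Bemp differences were 1.53 for Chac1 and 1.52 for Slc7a11.

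In siAcly cells the 3 compounds were accompanied by slightly lower means. Against siAcly Ut, the median of the 32 genes stood at -0.15 (HC), -0.14 (SB) and -0.15 (Bemp), with higher means for 5, 7 and 6 genes (against 48.7%, 50.5% and 49.4% of all genes) and 0 limma calls in each (background 0%). At an unadjusted p under 0.05, Cebpb and Pycr1 were lower with HC (background 0.813%), Atf5, Cebpb and Pycr1 with SB (6.58%) and Pycr1 with Bemp (1.20%). Cebpb, a C/EBP partner of ATF4, was at 1774.5, 1595.3 and 1503.0 counts in siAcly SB against 1867.6, 2641.5 and 4450.6 in siAcly Ut, without overlap, as were Gars and Pycr1 (9.38%, background 8.59%). Whether a compound acted differently in siC and siAcly cells was tested as an interaction, with 0 genes called for any compound (background 0%). For HC, 0 members had an unadjusted p under 0.05 (background 0.277% with a more negative effect), and for Bemp Gars did (0.886%). For SB, 6 of 32 genes had an unadjusted p under 0.05, all with a more negative effect in siAcly cells (18.8%, background 4.31%): Atf5, Cebpb, Eif4ebp1, Gars, Nupr1 and Pycr1, with differences of effects from -0.37 to -0.94 and a limma adjusted p of 0.560 for each. For each of these 6 genes, library siAcly Ut 15 held the highest value of all 24, and the count at that level was 4 without siC Ut 13 and siC Bemp 11 (background 2.78%). Under HC, SB or Bemp, the siAcly and siC groups themselves differed by a median of 0.15, 0.02 and 0.01 (-0.06 under Bemp without siC Bemp 11), with 0 members called (background 0.00813% with HC and 0% with SB and Bemp). Cebpb was lower in siAcly than in siC cells at an unadjusted p under 0.05 under HC (means 1913.8 and 2775.3, log2 difference -0.54, SE 0.24, limma adjusted p = 0.890) and under SB (1624.2 and 2968.8, -0.87, SE 0.24, adjusted p = 0.999). Nupr1 was the other gene at that level under HC, where it was higher (background 5.33%), Cebpb was alone under SB (3.04%), and there were 0 under Bemp (3.94%).

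In liver after 21 weeks of HC, limma called 0 of the 23 members tested and 0 of all 11497 genes (background 0%). The mean log2 level was higher with HC for 4 of 23 genes, against 48.3% of all genes, and the median difference was -0.13, against -0.01 over all genes. At an unadjusted p under 0.05, Cebpb, Slc38a2 and Slc7a5 were lower (3 of 23, background 2.10%) and Chac1 was higher (1 of 23, background 2.15%). Slc38a2 was at 1627.7, 1372.3, 1598.2, 1166.8 and 1555.0 counts in Ut mice and at 1058.6, 1337.7, 1110.7, 1280.8 and 1088.1 in HC mice (log2 difference -0.31, SE 0.11, limma adjusted p = 0.995). Cebpb was at 548.7, 437.4, 460.5, 404.2 and 702.3 in Ut mice and at 271.8, 645.4, 260.3, 282.3 and 275.5 in HC mice (-0.63, SE 0.23, adjusted p = 0.995). For Cebpb 4 of the 5 HC mice were below all Ut mice and 1 was within their range. Chac1 was low, from 13.6 to 19.1 with a median of 14.3 in Ut mice, against 14.8 to 44.2 in HC mice (0.61, SE 0.27, adjusted p = 0.995). The hormone gene Fgf21 spread widely in both groups, from 129.3 to 467.4 in Ut mice and from 39.4 to 272.9 in HC mice (-0.55, SE 0.50), as did Cth, from 3024.6 to 7566.0 and from 2904.6 to 8560.1. The 7 tRNA synthetase genes stayed within -0.15 to 0.12 of the Ut mean on the log2 scale.

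In soleus, a slow postural muscle, limma called 0 of the 31 members tested and 0 of all 12067 genes (background 0%), and the median difference was -0.02. At an unadjusted p under 0.05, Chac1 was lower (3.23%, background 2.01%) and Slc7a5 and Mthfd2 were higher (6.45%, background 3.04%). Chac1 was at 92.4, 158.5, 120.8, 142.5 and 241.6 counts in Ut mice and at 44.0 to 116.2 in HC mice, so that 3 of the 5 HC mice were below every Ut mouse. Its log2 difference was -0.95 (SE 0.29, unadjusted p = 0.00634, limma adjusted p = 0.788), opposite in sign to that in liver, a contrast across tables that was not tested. Slc7a5, which imports leucine as the partner of Slc3a2, was at 61.8 to 69.3 in 3 Ut mice with 1 below and 1 above these, against 86.5, 77.6, 74.5, 89.1 and 75.1 in HC mice (0.31, SE 0.12, adjusted p = 0.969). Mthfd2 was at 74.1, 75.8, 76.3, 65.3 and 56.8 against 95.2, 92.2, 75.7, 99.2 and 70.2 (0.30, SE 0.14, adjusted p = 0.972). Slc38a2 took a low and a high level in both groups. It was at 8597.2 in 1 Ut mouse and at 1771.3 to 3255.3 in the other 4, and at 8152.9, 8587.1 and 7184.6 in 3 HC mice and 1617.8 and 3023.3 in the other 2 (0.46, SE 0.48, adjusted p = 0.999). All 7 tRNA synthetase genes had differences between -0.12 and 0.00. Schwann cell markers (4 genes) summed to 1167.5 to 1576.0 counts in Ut mice and to 1696.6 to 6127.0 in HC mice, without overlap and with 0 of 4 called, and their part in the soleus values was not tested.

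**Figure D3:**
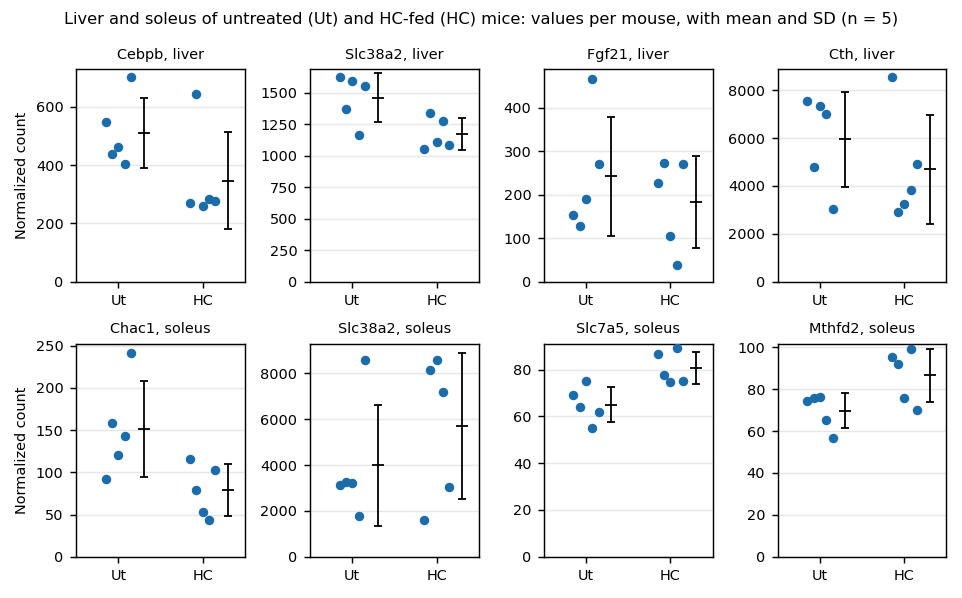
Normalised counts in liver (Cebpb, Slc38a2, Fgf21, Cth) and soleus (Chac1, Slc38a2, Slc7a5, Mthfd2) of untreated and HC-fed mice, 1 point per mouse with the group mean and SD. The groups overlap in every panel, and soleus Slc38a2 lies either near 1617.8 to 3255.3 or near 7184.6 to 8597.2.

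The module's only calls were in injured gastrocnemius. At 2 days after cardiotoxin with HC, 7 of the 33 genes rose against uninjected muscle (21.2%, background 5.34%) and 1 fell (3.03%, background 4.59%). The 7 were Trib3, Psat1, Mthfd2, Aldh18a1, Slc7a5, Slc7a1 and Slc3a2, and the 1 was Cth. By role, 3 of 5 transporters, 2 of 5 serine and folate enzymes, 1 of 4 asparagine, proline and cysteine enzymes and 1 of 10 stress factors rose, while 0 of 7 tRNA synthetases and 0 of 2 hormones did. The median log2 difference over the 33 was 0.38, against 0.02 over all genes, and the 3 treated libraries lay above all C libraries for 13 genes (39.4%, background 25.7%) and below them for 2 (6.06%, background 25.2%). Of the 10 genes with the element letters in the promoter window only Trib3 was called, and of the 18 without them Psat1, Mthfd2, Aldh18a1, Slc7a1 and Slc3a2 were.

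The leucine transporter pair and the arginine importer rose together. Slc7a5 was at 138.3, 100.2 and 167.0 counts in C muscle and at 805.4, 670.3 and 483.3 in CTX-HC 2DPI, a 4.80-fold difference on the log2(count + 1) scale (log2 difference 2.26, SE 0.48, limma adjusted p = 0.0225). Its heavy chain Slc3a2 was at 708.7, 563.5 and 615.6 against 1806.9, 1365.8 and 1002.1 (1.11, SE 0.23, adjusted p = 0.0208). Slc7a1, which imports arginine and lysine, was at 197.9, 169.8 and 301.6 against 692.6, 609.9 and 681.0 (1.60, SE 0.35, adjusted p = 0.0254). No injured and HC-treated library fell within the range of uninjected muscle for these 3 genes. Slc7a11 gave the largest mean difference of the module, 3.12, but its 3 treated libraries were at 172.8, 105.3 and 5.85 counts, the last within the C range of 2.39 to 6.75, and it was not called (SE 1.54, adjusted p = 0.161).

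Enzymes of the serine, folate and proline branches rose as well. Psat1 was at 65.9, 86.5 and 94.9 counts in C and at 467.2, 494.9 and 347.4 in CTX-HC 2DPI (log2 difference 2.39, SE 0.67, limma adjusted p = 0.0428). Mthfd2, a mitochondrial enzyme of dividing cells, was at 169.8, 170.4 and 199.3 against 527.6, 580.6 and 862.0 (1.83, SE 0.40, adjusted p = 0.0246). Aldh18a1, which opens proline synthesis, was at 98.2, 140.4 and 194.9 against 400.5, 417.1 and 311.4 (1.42, SE 0.35, adjusted p = 0.0320). Neighbours in the same pathways were not called: Psph had means of 160.0 in C and 115.7 in CTX-HC 2DPI, Pycr1 of 118.4 and 85.2, and Shmt2 of 609.4 and 692.4. Trib3 was the 1 stress factor called, at no more than 27.2 counts in C against 111.1, 98.3 and 156.1 (2.42, SE 0.48, adjusted p = 0.0179). Cth moved the other way, from 34.0, 35.3 and 25.4 counts to 2.94, 4.49 and 8.35 (-2.46, SE 0.48, adjusted p = 0.0175), so all treated libraries lay under all C libraries. Atf4 itself was at 3772.2, 4030.6 and 4396.0 in C and at 3844.1, 3491.8 and 6450.9 in CTX-HC 2DPI (0.12, SE 0.35).

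**Figure D4:**
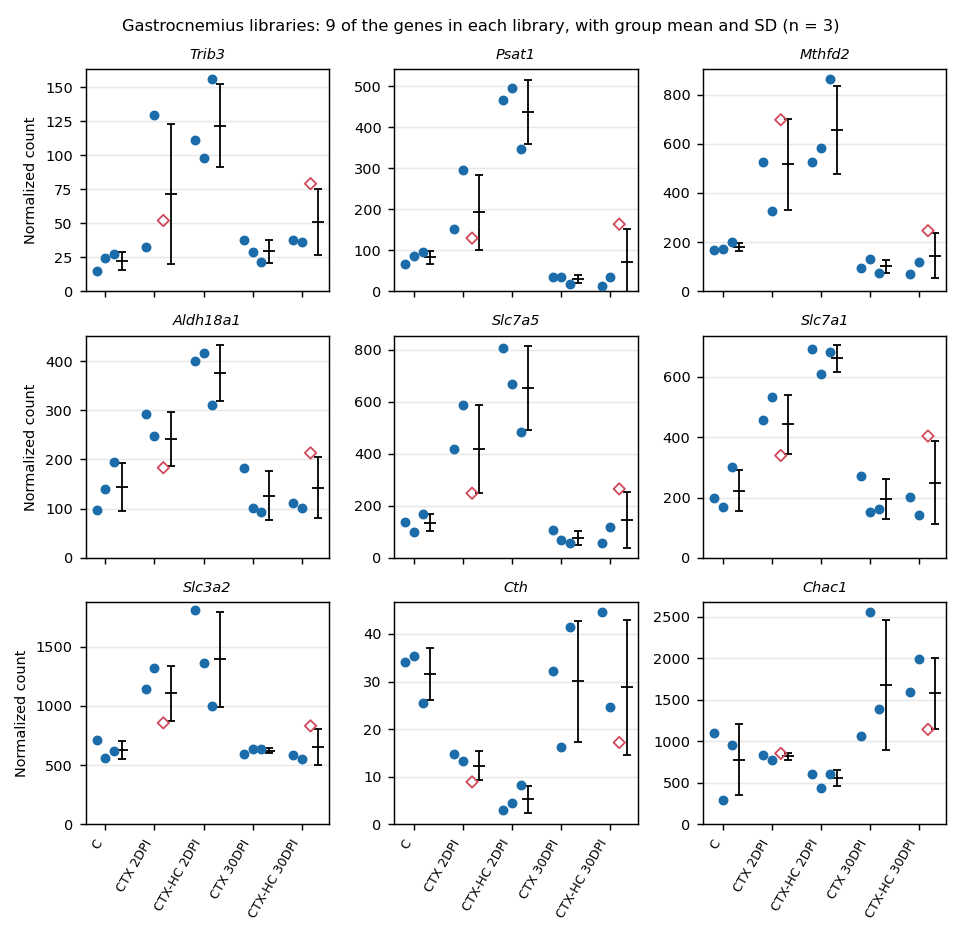
Normalised counts of Trib3, Psat1, Mthfd2, Aldh18a1, Slc7a5, Slc7a1, Slc3a2, Cth and Chac1 in the 15 gastrocnemius libraries by group, 1 point per library with the group mean and SD, and hollow red diamonds for CTX 2DPI 57 and CTX-HC 30DPI 62. The 3 CTX-HC 2DPI libraries lie above all 3 C libraries for the first 7 genes and below them for Cth.

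Injury without HC gave differences of the same sign for these 8 genes, but limma called 0 of the 33 and 0 of all 14033 genes in that comparison (background 0%). At an unadjusted p under 0.05, 8 of the 33 genes were higher in CTX 2DPI than in C (24.2%, background 7.25%) and 1 was lower (3.03%, background 7.68%). The 8 were Aldh18a1, Cebpb, Eif4ebp1, Mthfd2, Slc3a2, Slc7a1, Slc7a5 and Trib3, and the 1 was Cth. By the study's limits 6 counted (18.2%, background 4.73%). Mthfd2 was at 524.9, 325.1 and 697.4 counts (log2 difference to C 1.45, SE 0.40, limma adjusted p = 0.227) and Slc7a5 at 420.1, 586.5 and 248.6 (1.57, SE 0.48, adjusted p = 0.257). Both lay above C in every library, and both of these comparisons with C share the same 3 C libraries. The 2 injured groups at day 2 were not shown to differ in any member. CTX-HC 2DPI against CTX 2DPI had 0 of 33 called by limma (background 0%) and a median difference of 0.03. An unadjusted p under 0.05 was reached by Cth alone, which was lower with HC (3.03%, background 4.38%, log2 difference -1.16, SE 0.48, adjusted p = 0.662) and alone met the study's limits (background 1.77%). Psat1 was at 467.2, 494.9 and 347.4 with HC and at 151.4, 296.6 and 129.7 without, which did not overlap (1.26, SE 0.67, adjusted p = 0.662). The non-overlapping genes were 4 upward (12.1%, background 6.18%) and 3 downward (9.09%, background 7.35%).

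At day 30 no member was called against uninjured muscle. In CTX 30DPI against C, limma called 0 of 33 (background 0%) with a median difference of -0.12. At an unadjusted p under 0.05, Cebpb, Chac1 and Nupr1 were higher (9.09%, background 1.62%) and Ddit4 and Psat1 lower (6.06%, background 1.50%), and 4 of these met the study's limits (12.1%, background 1.63%). In CTX-HC 30DPI against C, limma also called 0 of 33 (background 0%) with a median of -0.12, and Chac1, Nupr1 and Trib3 were higher at an unadjusted p under 0.05 (9.09%, background 1.55%) and within the study's limits (background 1.40%). Both comparisons share the C libraries, of which 1 held 291.9 counts of Chac1 and the others 953.3 and 1094.3, against 1069.6 to 2557.3 in CTX 30DPI and 1143.8 to 1993.2 in CTX-HC 30DPI. CTX-HC 30DPI against CTX 30DPI gave 0 limma calls (background 0%), 0 members at an unadjusted p under 0.05 (background 0.755%) and a median of -0.01.

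From day 2 to day 30 with HC, 7 genes fell (21.2%, background 5.54%) and 2 rose (6.06%, background 4.20%). Those that fell were Eif4ebp1 (log2 difference -1.27), Psat1 (-3.32), Mthfd2 (-2.33), Aldh18a1 (-1.47), Slc7a5 (-2.39), Slc7a1 (-1.54) and Slc3a2 (-1.07), with limma adjusted p values between 0.00764 and 0.0312. Psat1 was at 12.4, 35.6 and 163.6 counts at day 30. Cth and Chac1 were the 2 that rose, Cth to 44.5, 24.6 and 17.2 (2.24, SE 0.48, adjusted p = 0.0186) and Chac1 from 611.8, 442.2 and 605.1 to 1597.2, 1993.2 and 1143.8 (1.49, SE 0.43, adjusted p = 0.0477). Chac1, a gene commonly read as a marker of this response, thus ran opposite to the transporters over the same interval. Without HC, Mthfd2 was the only member called from day 2 to day 30 (3.03%, background 0.214%), falling from 524.9, 325.1 and 697.4 counts to 96.4, 130.3 and 75.5 (-2.31, SE 0.40, adjusted p = 0.0375). By the study's limits 8 counted (24.2%, background 8.88%). The difference between the HC effects at day 30 and day 2 was called by limma for 0 of 33 genes (background 0%), and 0 had an unadjusted p under 0.05 (background 2.53%). Single libraries decided these calls as well. Without CTX-HC 2DPI 58, CTX-HC 30DPI 61 or CTX-HC 30DPI 63, Mthfd2 alone remained called between the HC groups, without CTX-HC 2DPI 59 there were 3 calls (9.09%, against 2.47% of all genes in the same fit), and without CTX-HC 30DPI 62 there were 12 (36.4%, against 35.9%). Between the groups without HC, Mthfd2 was not called without CTX 2DPI 55, 56 or 57 or CTX 30DPI 50 or 51.

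**Figure D5:**
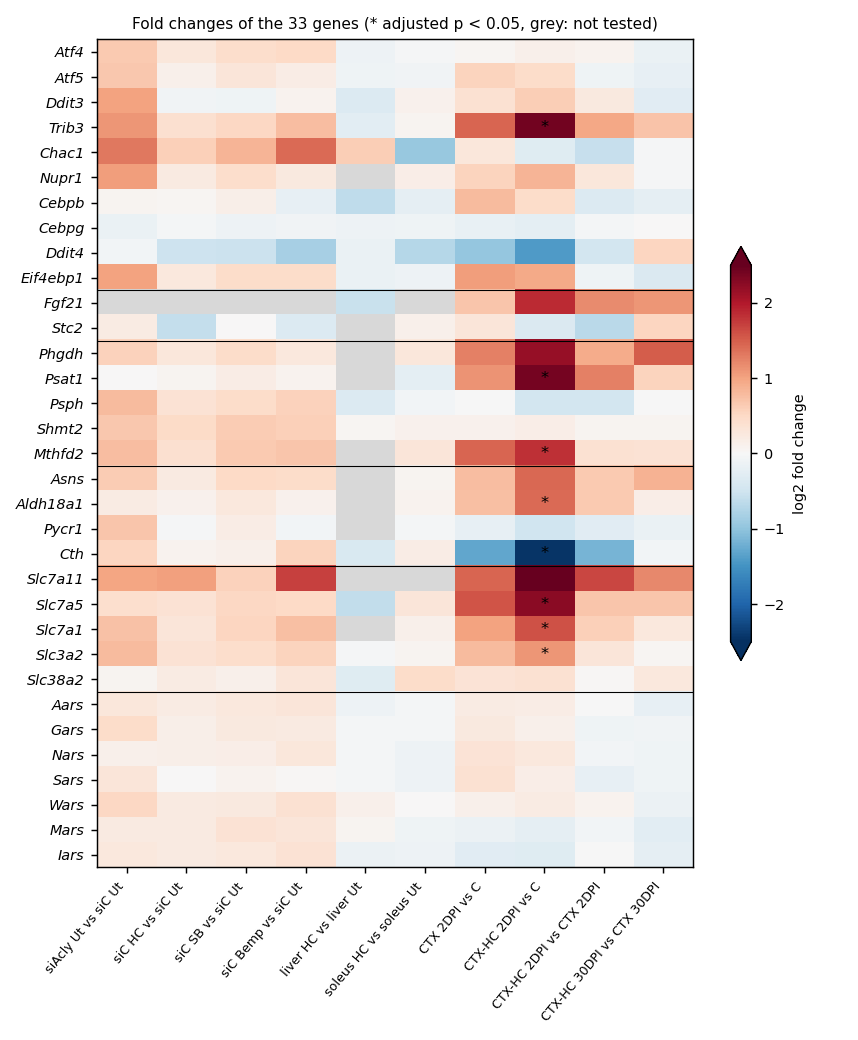
Log2 differences of the 33 genes (rows, by role) in 10 comparisons (columns), with colours saturating at 2.5 in either direction, stars for an adjusted p under 0.05 and grey for genes not tested. Among these 10 comparisons the stars appear only for CTX-HC 2DPI against C, with 7 genes upward and Cth downward, and the rows of the 7 tRNA synthetases are pale throughout.

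Macrophage and neutrophil marker sums were higher in CTX-HC 2DPI than in C, and fewer cells of a type and less RNA per cell cannot be told apart in these tissue libraries. The 7 macrophage and monocyte markers summed to 793.0 to 3636.6 counts in C, 1880.1 to 10152.0 in CTX 2DPI and 5757.1 to 24900.0 in CTX-HC 2DPI, with 2 of 7 called in CTX-HC 2DPI against C. Neutrophil markers (4 genes) summed to 6.95 to 37.9 in C and 311.7 to 1082.8 in CTX-HC 2DPI, with 1 of 2 tested called, and muscle fiber markers (8 genes) to at least 2351062.0 in C and at most 1408882.3 in CTX-HC 2DPI, with 2 of 8 called. Fibroblast markers (4 genes) summed to 9008.1 to 12436.3 in C, 21469.9 to 47393.0 in CTX 2DPI and 21054.7 to 82270.7 in CTX-HC 2DPI, with 0 of 4 called in either comparison with C. Satellite cell and myoblast markers (4 genes) reached 2450.0 in C, 10950.2 in CTX 2DPI and 3984.0 in CTX-HC 2DPI, again with 0 of 4 called. T and B lymphocyte markers (4 genes) were near 0 in C (0.932 to 6.58) and in CTX-HC 2DPI (0 to 7.77). They were not near 0 in every library at day 30, with sums of 1.06, 19.6 and 59.3 in CTX 30DPI and of 3.03, 4.61 and 2751.3 in CTX-HC 30DPI. Within both CTX-HC groups, Phgdh and Slc7a11 were higher in the libraries with a high macrophage sum than in the rest. The CTX-HC 2DPI libraries 58 and 59, with macrophage sums of 24900.0 and 18003.0, held 185.7 and 204.2 counts of Phgdh and 172.8 and 105.3 of Slc7a11. Library 60 of the same group, with a sum of 5757.1, held 47.5 and 5.85. CTX-HC 30DPI 62, with a sum of 6821.6 against 753.7 and 796.5 in the other 2 of its group, held 243.1 counts of Phgdh and 130.7 of Slc7a11 against at most 35.7 and 2.87 in those 2. CTX 2DPI 57, with a sum of 1880.1, held 31.5 and 3.59. Mthfd2 was not ordered in this way, being highest in library 60 (862.0) and at 697.4 in CTX 2DPI 57. The part of the cell mixture in these results was not tested.

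The 8 calls of CTX-HC 2DPI against C depended on single libraries. Leaving out C 54, CTX-HC 2DPI 58 or the C library of the highest number left 0 members called (against 0.230% to 0.432% of all genes in the same fits), leaving out CTX-HC 2DPI 59 left 1 (1.17% of all genes), C 53 left 5 (2.65%) and CTX-HC 2DPI 60 left 8 (14.7%). With library numbers from 100 on as a covariate, a split that sets 1 C and 1 CTX 30DPI library apart, 3 members were called (9.09%, against 1.65% of all genes), Trib3 upward and Cth and Ddit4 downward. Without CTX 2DPI 57 and CTX-HC 30DPI 62, whose marker sums stand apart from their groups, 9 were called (27.3%, against 30.7% of all genes), an alternative chosen after seeing the data. Whether these 2 libraries are labelled rightly could not be settled here. Uneven marker sums were not confined to them. CTX 30DPI held macrophage sums of 566.6, 606.0 and 5326.3 and fibroblast sums of 10070.3, 11177.0 and 56462.1. All 3 of its libraries were kept in that alternative. C held macrophage sums of 793.0, 2957.1 and 3636.6.

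Related genes outside the module give its setting in CTX-HC 2DPI against C. Of 15 further ATF4 targets tested, 3 rose (background 5.34%): Atf3, a stress transcription factor (2.25, SE 0.47, limma adjusted p = 0.0219), Slc1a4, a serine and alanine importer (2.20, SE 0.55, adjusted p = 0.0329), and Mthfd1l, a mitochondrial folate enzyme (2.94, SE 0.86, adjusted p = 0.0489). Of 10 chaperones of the endoplasmic reticulum, 7 rose (background 5.34%), with Sdf2l1 (2.30, SE 0.33, adjusted p = 0.00583) and Pdia4 (1.81, SE 0.47, adjusted p = 0.0359) at the top and Hspa5 (1.08, SE 0.21, adjusted p = 0.0165) and Hsp90b1 (1.06, SE 0.20, adjusted p = 0.0157) at the bottom of the 7. None of 13 other cytosolic tRNA synthetases, 17 mitochondrial tRNA synthetases or 8 kinases and phosphatases of eIF2alpha was called. In siAcly Ut against siC Ut, where the module's median was 0.55, the further ATF4 targets had a median of 0.27 (16 genes), the other cytosolic tRNA synthetases 0.15 (13), the mitochondrial ones 0.02 (17) and the chaperones -0.07 (10), with 0 called in each list.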

How the data were processed

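RNA was sequenced from AML12 cells, liver, soleus and gastrocnemius. The authors deposited 1 table per source of gene counts normalised by DESeq2's median of ratios, a signal per gene that is not a raw count, with mm10 as the genome per the labels. Per the study's methods, reads were aligned with Illumina's STAR-based RNAseq Alignment. The strand setting of the counting is not given in the sources used here. Whole reads could not be recovered from these values, so no count test was run, and depth was estimated as the column sum over the value of 1 read. The deposited values were analysed on log2(value + 1) with limma 3.58.1 (trend, all groups of a table in 1 fit, R 4.3.3), two-sided, with Benjamini-Hochberg adjusted p values over all genes tested. The script was tested on simulated data. Exon lengths came from GENCODE vM21 and promoters from RefSeq (GRCm38.p6). Each of the 33 genes is covered, with Acly as the check. Of other lists, the 2 called genes with the highest and the 2 with the lowest difference are named. Members and lists were chosen with earlier results of these data known. Alternatives were other pseudocounts, no filter, rescaling, quantile normalisation, fits of the 2 groups alone, a library number covariate, the study's limits, a replicate block and leaving out each library. The highest correlation between any pair of libraries of a table was 0.9957, and 0 pairs were identical.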

Additional observations from a re-analysis of the deposited data

Results flagged for a closer look

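Of 108 groups of 5 mice with a member tested, 10 held a mouse whose distance to its nearest neighbour took more than 0.71 of the group's range, Dixon's 95% limit for 5 values. Chance gives about 1 in 20 such groups. In liver, mouse Ut 5 stood out for Chac1 (19.1 normalised counts, the others at 13.6 to 14.6) and for Cebpg, a C/EBP partner of ATF4 (768.3, the others at 466.2 to 521.0). Liver mouse HC 2 stood out for Cebpb (645.4, the others at 260.3 to 282.3) and for the seryl-tRNA synthetase gene Sars (533.5, the others at 379.3 to 404.1). In soleus, mouse HC 1 stood out for Cebpb (1438.5, the others at 890.3 to 973.3), Shmt2 (550.1, the others at 441.6 to 464.1) and Sars (1463.7, the others at 1099.1 to 1196.4). Soleus mouse Ut 5 was high for Slc38a2 (8597.2, the others at 1771.3 to 3255.3), mouse HC 5 for Psat1 (93.4, the others at 54.4 to 61.6), and mouse HC 3 was low for Slc3a2 (229.8, the others at 264.0 to 274.9).

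In AML12 cells the effect of a compound took opposite signs, without overlap of the groups on either side, for 2 members. SB against Ut gave a log2 difference of 0.14 for Cebpb in siC cells and of -0.79 in siAcly cells, a difference of effects of -0.93 (limma adjusted p = 0.560). Bemp against Ut gave 0.22 for Gars in siC cells and -0.15 in siAcly cells, a difference of -0.37 (limma adjusted p = 0.998). Neither difference passed the adjusted threshold, and siAcly Ut 15 was the highest of the 24 libraries for both genes.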

How the results depend on the processing

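Of the members called above, 0 changed sign under the alternatives. The median of the members changed sign under at least 1 alternative for siAcly against siC with HC, SB or Bemp, CTX-HC 2DPI against CTX 2DPI, CTX 30DPI against C, CTX-HC 30DPI against CTX 30DPI and soleus, each with 0 members called above. Counts of called members stayed within 1.5 times the main count in 353 of 384 recomputations, medians within 1 SD between libraries in 268 of 284, and single members on the same side of the threshold in 1102 of 1203. Most comparisons had 0 members called above, so the totals for counts and single members say little about the comparisons with calls. The cause of the exceptions was not tested. By the study's limits the calls were 3 for siAcly Ut against siC Ut, 1 for siC Bemp against siC Ut, 6 for CTX 2DPI and 4 for CTX 30DPI against C, 3 for CTX-HC 30DPI against C, 1 for CTX-HC 2DPI against CTX 2DPI and 8 for CTX 30DPI against CTX 2DPI. With only the 2 groups in the fit, CTX-HC 2DPI against C had 13 of 32 members called (40.6%, against 32.2% of all genes), CTX 30DPI against CTX 2DPI 0 and CTX-HC 30DPI against CTX-HC 2DPI 0. With the library number covariate these were 3 for CTX-HC 2DPI against C, 0 for CTX 30DPI against CTX 2DPI (median -0.46) and 1 (Nupr1, against 1.53% of all genes) for siAcly Ut against siC Ut. Quantile normalisation gave 2 for CTX 30DPI against CTX 2DPI (0.321% of all genes). Without CTX 2DPI 57 and CTX-HC 30DPI 62, chosen after seeing the data, CTX 30DPI against CTX 2DPI gave 5 (15.2%, against 7.86% of all genes) with a median of -0.19, CTX-HC 30DPI against CTX-HC 2DPI a median of -0.18, and CTX 2DPI against C a median of 0.26.

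Leaving out 1 library gave 0 to 8 calls for CTX-HC 2DPI against C, 1 to 12 for CTX-HC 30DPI against CTX-HC 2DPI (1 without CTX-HC 2DPI 58), 0 to 2 for CTX 30DPI against CTX 2DPI and 0 to 2 for siAcly Ut against siC Ut (2 without siAcly Ut 14, against 2.43% of all genes). Medians ranged from 0.32 to 0.74 for siAcly Ut against siC Ut, 0.02 to 0.42 for siC HC, 0.18 to 0.48 for siC SB and 0.26 to 0.41 for siC Bemp against siC Ut, and from -0.33 to -0.05, -0.33 to -0.05 and -0.29 to -0.02 for siAcly HC, SB and Bemp against siAcly Ut. For siAcly against siC they ranged from -0.07 to 0.29 under HC, -0.13 to 0.14 under SB and -0.06 to 0.12 under Bemp. In gastrocnemius they ranged from 0.26 to 0.54 for CTX 2DPI, 0.29 to 0.43 for CTX-HC 2DPI, -0.08 to 0.02 for CTX 30DPI and -0.17 to -0.01 for CTX-HC 30DPI against C. Between injured groups they ranged from -0.26 to 0.14 for CTX-HC 2DPI against CTX 2DPI, -0.52 to -0.18 for CTX 30DPI against CTX 2DPI, -0.50 to -0.18 for CTX-HC 30DPI against CTX-HC 2DPI and -0.08 to 0.07 for CTX-HC 30DPI against CTX 30DPI. They ranged from -0.18 to -0.09 in liver and from -0.07 to 0.04 in soleus.

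The replicate block in liver and soleus left 0 members called in each, with medians of -0.13 and -0.02. Same-numbered mice did not deviate together in every pair, with correlations of 0.02 to 0.08 in liver and -0.11 to 0.40 in soleus. Depth limits the low genes of liver, where 10 members were not tested.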

Other observations

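Fgf21, not tested in AML12 cells, was at 0 to 2.57 normalised counts across the 24 AML12 libraries. In gastrocnemius, Fgf21 was at 31.9, 43.5 and 17.4 counts in CTX-HC 2DPI against 9.14 to 15.2 in CTX 2DPI and 8.52, 4.05 and 10.4 in C, with the 3 HC libraries above the other 6 (log2 difference to C 1.87, SE 0.89, limma adjusted p = 0.146).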
